A study of Mus musculus with 4 samples.

Results

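The Hox genes were taken as the rows of the deposited expression table named Hoxa, Hoxb, Hoxc or Hoxd followed by a number only, which gave 39 genes among 23242 rows. RNA was sequenced from the ventral and dorsal lobes of the prostate in the FVB strain. One group was 2 wild-type animals without ERG (mouse 27 and mouse 28). The other was 2 ERG-positive homozygotes of a TMPRSS2:ERG line (mouse 26 and mouse 29), and pairs of values below keep these orders. The transgene is a bacterial artificial chromosome that holds the TMPRSS2 locus, into which exons 4 to 11 of human ERG were placed behind a GFP flanked by loxP sites. Cre protein was then injected into the pronucleus, and 1 sub-line that passed on TMPRSS2:ERG was made homozygous, so the homozygotes stand for a single transgenic line. The sources used here give neither ages nor whether the wild types were littermates.

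Hox genes encode homeodomain transcription factors that lie in 4 clusters, on mouse chromosomes 6 (Hoxa), 11 (Hoxb), 15 (Hoxc) and 2 (Hoxd). Within a cluster the order of the genes follows the order in which they are used along the body axis, from low paralog numbers at the front to number 13 at the tail end. The prostate forms from the urogenital sinus near that end, and Hoxa10 and the Hox13 genes are known for roles in the form and identity of male accessory glands. Hoxb13 is known as a marker of prostate epithelium and a partner of the androgen receptor.

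Promoter sequences are shown for the 3 Hox genes that passed the test between genotypes, Hoxa9, Hoxa10 and Hoxb8. Each is the 250 bases before an annotated transcription start, read 5′ to 3′ on the strand of the gene from RefSeq (build GRCm38.p6), which had windows for 22 of the 39 genes. Capitals mark TTTAT or its reverse complement ATAAA, the core recognised by caudal-type homeodomain factors, which are known regulators of Hox clusters.
Hoxa9, chr6:52227371-52227620, minus strand: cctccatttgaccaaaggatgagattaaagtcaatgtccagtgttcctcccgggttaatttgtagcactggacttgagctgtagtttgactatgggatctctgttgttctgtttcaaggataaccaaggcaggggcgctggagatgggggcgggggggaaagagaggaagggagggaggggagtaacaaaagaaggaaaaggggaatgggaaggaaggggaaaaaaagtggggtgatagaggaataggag
Hoxa10, outer start, chr6:52240855-52241104, minus strand: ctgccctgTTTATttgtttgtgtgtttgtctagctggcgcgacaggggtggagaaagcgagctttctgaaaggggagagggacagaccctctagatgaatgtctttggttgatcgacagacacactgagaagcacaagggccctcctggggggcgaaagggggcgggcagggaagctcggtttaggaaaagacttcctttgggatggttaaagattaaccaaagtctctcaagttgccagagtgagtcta
Hoxa10, inner start, chr6:52234940-52235189, minus strand: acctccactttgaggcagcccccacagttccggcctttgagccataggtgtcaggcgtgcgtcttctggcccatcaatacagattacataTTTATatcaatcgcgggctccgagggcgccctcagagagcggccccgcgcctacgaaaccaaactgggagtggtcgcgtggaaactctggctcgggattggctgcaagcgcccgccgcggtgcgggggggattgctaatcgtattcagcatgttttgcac
Hoxb8, chr11:96281655-96281904, plus strand: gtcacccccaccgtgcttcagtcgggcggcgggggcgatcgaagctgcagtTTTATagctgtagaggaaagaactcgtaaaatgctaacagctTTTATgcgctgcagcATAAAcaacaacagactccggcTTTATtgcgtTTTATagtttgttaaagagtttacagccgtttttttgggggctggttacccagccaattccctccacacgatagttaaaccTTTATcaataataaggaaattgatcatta
The Hoxb8 window held 6 matches, each Hoxa10 window 1 and the Hoxa9 window 0. The matched letters are A and T only, and the Hoxb8 window was 44.4% G and C. The median was 58.6% over the Hox windows and 52.4% over all windows. The number of matches in a window was not compared with other windows. A match on either strand lay in 37.5% of the 24 Hox windows and in 37.3% of all 32851 windows of this length. The ETS core GGAAGT (reverse complement ACTTCC), of the kind that ERG binds, lay before 1 of the 11 tested Hox genes with a window, at the outer start of Hoxa10. It lay in 19.7% of all windows. The androgen receptor half-site AGAACA (reverse complement TGTTCT) lay before Hoxa9 and Hoxa11 among those 11, and in 16.1% of all windows.

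The clusters also carry microRNA genes. The miR-196 pair is shown because its genes lie in the Hoxa, Hoxb and Hoxc clusters and miR-196 is known to cut the Hoxb8 transcript. Capitals mark the seed, bases 2 to 8, which both microRNAs share.
mmu-miR-196a-5p: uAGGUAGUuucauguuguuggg
mmu-miR-196b-5p: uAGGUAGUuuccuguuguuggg
Hoxb8, site in the 3′ UTR, chr11:96284888-96284909, plus strand: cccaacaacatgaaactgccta
All 22 bases of miR-196a paired with this Hoxb8 site, 21 as Watson-Crick pairs and 1 as a G:U pair. With both kinds of pair counted alike, the best sites in other Hox 3′ UTRs, in Hoxa10 and Hoxd3, paired at 19 bases. Of these, 8 and 9 were G:U pairs and 11 and 10 Watson-Crick pairs. Among the sites so chosen, that of Hoxd8 had the most Watson-Crick pairs after Hoxb8, 15 of 18 paired bases. The seed complement ACTACCT, on the transcript strand only, lay in the longest annotated 3′ UTR of 9 of 39 Hox genes, or 23.1%. The same letters lay in 6.11% of the 20998 protein-coding genes with a 3′ UTR, whose median length was 962 bases against 966 for the Hox genes. The rows of the 6 microRNA genes inside the clusters (Mir196a-1, Mir196a-2, Mir196b, Mir10a, Mir10b and Mir615) are listed at 0 in every library, so the microRNAs were not measured here.

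Levels are given as scaled FPKM, the deposited FPKM (fragments per kilobase of transcript per 1e6 fragments) divided by a scaling factor for each library. FPKM is per length, so levels can be set side by side between genes. Between 11541 and 11854 genes reached 1 FPKM per library. From the spacing of the lowest values, depth was about 39.4 to 45.3 × 1e6 fragments per library, an estimate. At that depth 1 fragment on a transcript of 2 kb is worth about 0.0110 to 0.0127 FPKM. The luminal prostate markers Pbsn and Krt8 were high in all 4 libraries, the lowest value of either being 167 scaled FPKM for Krt8 in mouse 29. Mouse Erg does not carry the transgene's human exons and was at 1.06 and 0.926 scaled FPKM in wild type and at 0.881 and 1.12 in homozygotes, so it does not check the labels. Mouse Tmprss2 was at 74.2 and 78.7 in wild type and at 42.3 and 47.9 in homozygotes a fall in both (log2 difference -0.75, SE 0.118, limma adjusted p = 0.0209). Each library came from its own mouse, per the labels.

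In homozygotes Hoxa9 and Hoxa10 rose and Hoxb8 fell, each by between 0.54 and 1.01 on the log2 scale. Differences are of log2(scaled FPKM + 1), homozygote minus wild type, which understates the change of low genes. Of the 39 Hox genes, 18 averaged 1 scaled FPKM or more over the libraries and were tested, 3 under that mean reached 1 in some library, 14 stayed between 0 and 1 and 4 were listed at 0 throughout. With limma over all 11762 genes tested, 2 Hox genes were called higher and 1 lower at an adjusted p under 0.05, against 4.65% of all tested genes called higher and 3.0% called lower (7.65% in all). The members' shares were 11.1% and 5.56% of 18, so each share rests on 1 or 2 genes. Among all calls 60.8% were rises, and without scaling that share was 73.0%. The 2 groups did not overlap for 13 of the 18 tested Hox genes, 4 higher and 9 lower in homozygotes, where 25.3% of all tested genes were higher without overlap and 25.8% lower (51.1% in all). The median absolute log2 difference was 0.41 over the 18 genes and 0.15 over all genes tested, and the signed medians were -0.14 and -0.0033. The Hox median turned to 0.11 over the 9 genes left with a minimum mean of 5, and is -0.0031 over 25 genes in the authors' deposited table. At an unadjusted p under 0.05, 3 Hox genes were higher and 6 lower, against 11.0% and 10% of all genes tested (21.0% in all).

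**Figure D1:**
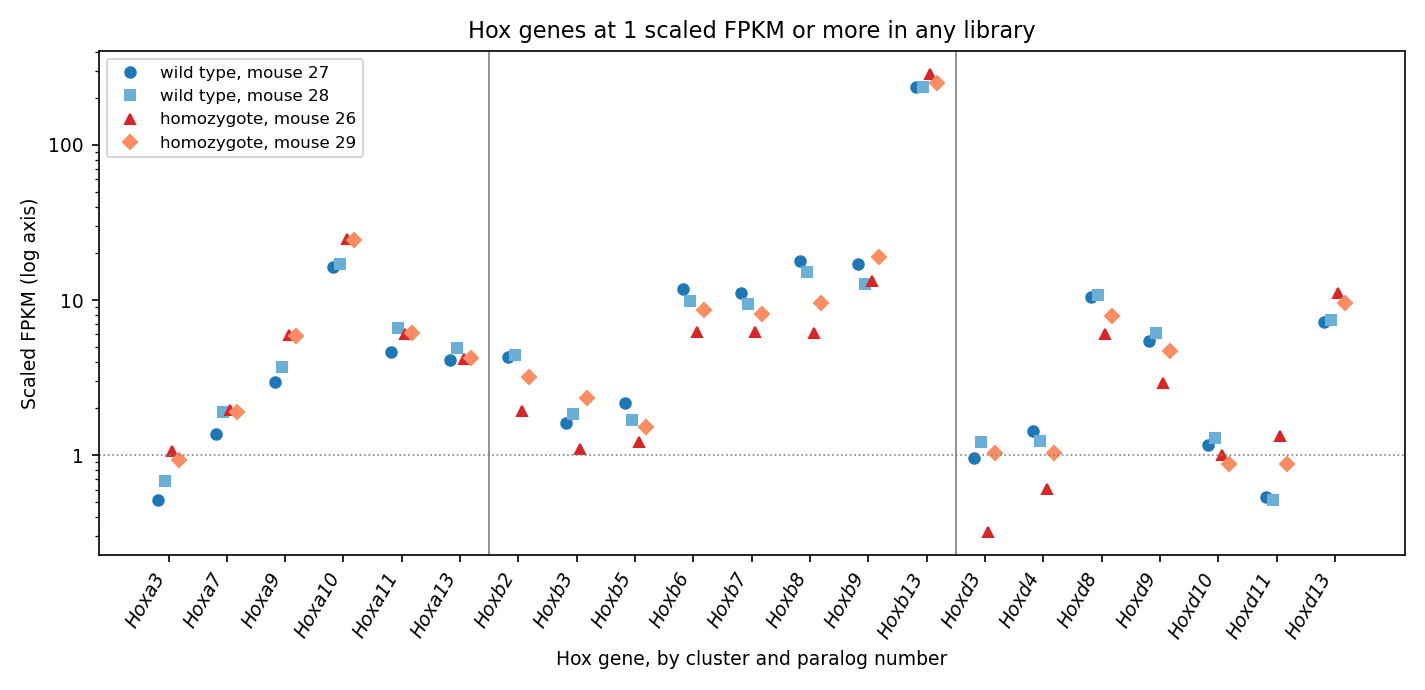
Scaled FPKM (log axis) of the 21 Hox genes that reached 1 scaled FPKM in any library, with 1 point for each mouse, ordered by cluster and paralog number. Hoxb13 lies above 237 in every library, and the wild-type points of Hoxb8 lie above both homozygote points.

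Hoxb13 (Entrez 15408, chromosome 11, 96194361 to 96196599, mm10) dominated the Hox transcripts of every library. It was at 238 and 237 scaled FPKM in wild type and at 288 and 249.5 in homozygotes. It ranked between 215 and 250 from the top among the 23210 genes with a value in all libraries. Both homozygotes lay above both wild types, but the difference of 0.17 (SE 0.146) did not pass (limma adjusted p = 0.589), and mouse 29 lay nearer to the wild types than to mouse 26. It was 0.02 with quantile normalization, 0.07 without mouse 26 and 0.28 without mouse 29. Hoxb13 made up 65.4% and 66.1% of all Hox FPKM in the wild types and 73.1% and 66.7% in homozygotes.

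The other Hox13 genes were far lower than Hoxb13. Hoxd13, which patterns limbs and the urogenital tract, was at 7.19 and 7.48 scaled FPKM in wild type and at 11.1 and 9.64 in homozygotes. The groups did not overlap, and the difference of 0.44 (SE 0.115) did not pass (limma adjusted p = 0.0880). Hoxa13, also needed for the urogenital tract, was at 4.13 and 4.93 in wild type and at 4.16 and 4.21 in homozygotes, a difference of -0.09 (SE 0.123, limma adjusted p = 0.761) that turned positive without mouse 28 (0.015). Hoxc13, known from hair follicles, was listed at 0 in all 4 libraries. The Hox13 genes together were at 249.4 and 249.8 in wild type and at 303 and 263 in homozygotes, nearly all of it Hoxb13.

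In the Hoxa cluster both rises lay at neighbouring genes. Hoxa10 (Entrez 15395, chromosome 6, 52231197 to 52240854) was at 16.3 and 17.1 scaled FPKM in wild type and at 24.9 and 24.5 in homozygotes. It rose by 0.54 in log2 (SE 0.0992, limma adjusted p = 0.0333), or 1.48 times from a mean of 16.7 ± 0.575 to 24.7 ± 0.302 (SD, n = 2 each), and was higher in each homozygote than in either wild type. Hoxa9 (Entrez 15405, chromosome 6, 52224054 to 52227370), a gene best known from blood stem cells and leukaemia, was at 2.97 and 3.73 in wild type and at 5.96 and 5.83 in homozygotes. It rose by 0.67 (SE 0.129, limma adjusted p = 0.0388), or 1.76 times from 3.35 ± 0.536 to 5.89 ± 0.0944 (SD, n = 2 each), again with no overlap. The homozygotes differed little from each other in both genes, less than the wild types did in Hoxa9. Both calls were lost with unscaled FPKM (Hoxa10 adjusted p = 0.0526, Hoxa9 0.0786) and without mouse 26 (0.334 and 0.246) or mouse 29 (0.252 and 0.199), and that of Hoxa9 also without a filter on low values (0.0955). The exact permutation test over the 6 arrangements of the libraries gave p = 0.333 for each, the smallest this design allows.

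Hoxa11, which acts in the reproductive tract and the limb, did not separate the groups: it was at 4.66 and 6.60 scaled FPKM in wild type and at 6.08 and 6.11 in homozygotes (difference 0.11, SE 0.163, limma adjusted p = 0.774). Its direction turned without mouse 27 (-0.10). The row of its antisense transcript, Hoxa11as, overlaps it and was higher than Hoxa11 itself. Hoxa11as was at 9.70 and 10.6 in wild type and at 14.7 and 13.95 in homozygotes, a difference of 0.46 (SE 0.106) that did not pass (limma adjusted p = 0.0633). It passed without mouse 27 (0.0464) and without mouse 28 (0.0246). The sources used here do not give the use of strand, so reads of these overlapping genes may not have been told apart. Hoxa7 was at 1.38 and 1.90 in wild type and at 1.97 and 1.90 in homozygotes (difference 0.16, SE 0.143, limma adjusted p = 0.617).

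The front of the Hoxa cluster was low, and Hoxa2 to Hoxa5 lay on the same side as Hoxa9. Hoxa3 was at 0.516 and 0.681 scaled FPKM in wild type and at 1.06 and 0.935 in homozygotes, and Hoxa5 at 0.719 and 0.486 against 0.888 and 0.763. Neither was tested, because their means lay under 1. Hoxa2 and Hoxa4 were also higher in each homozygote than in either wild type, at levels of at most 0.196, while the groups overlapped for Hoxa6. The row of Hoxa3 spans those of Hoxa4, Hoxa5 and Hoxa6, so its reads may be shared with them. Of all genes under the filter with a value above 0, 15.9% were higher without overlap in homozygotes and 27.6% lower.

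In the Hoxb cluster Hoxb8 fell, and the other 7 tested genes did not pass. Hoxb8 (Entrez 15416, chromosome 11, 96281905 to 96285325), a trunk-level gene known from spinal cord and myeloid cells, was at 17.9 and 15.1 scaled FPKM in wild type. In mice 26 and 29 it was at 6.12 and 9.59, below both wild types. Its log2 difference was -1.01 (SE 0.209, limma adjusted p = 0.0475), a fall to 0.476 times the wild-type mean, from 16.5 ± 2.00 to 7.86 ± 2.45 (SD, n = 2 each). The adjusted p lay just under the threshold: it was 0.0856 with unscaled FPKM, 0.0570 with quantile normalization, just above 0.05 with a pseudocount of 0.1, 0.113 without a filter, 0.0544 without a trend and 0.172 without mouse 26. The authors' deposited table lists Hoxb8 at -0.96 (log2 fold) and a q-value of 1.63e-04. The authors' deposited table has 2 Hox genes higher (Hoxa9 and Hoxa10) and 2 lower (Hoxb8 and Hoxc10) at a q-value under 0.05. Of its 14374 genes with a q-value, 6.95% were higher and 6.99% lower (14.2% in all, some of them without a usable fold).

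Hoxb9 lies next to Hoxb8 on the posterior side and was at 17.0 and 12.7 scaled FPKM in wild type and at 13.3 and 18.9 in homozygotes. Those groups overlapped (difference 0.11, SE 0.208, limma adjusted p = 0.838), and the sign turned without mouse 28 and without mouse 29 (-0.09 and -0.13). The ratio of Hoxb9 to Hoxb8, which no scaling of a library can move, was 0.947 and 0.838 in wild type and 2.18 and 1.97 in homozygotes. Hoxb8 was thus the higher of these neighbours in both wild types, and Hoxb9 in both homozygotes.

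Of the 6 genes from Hoxb2 to Hoxb7, all but Hoxb3 were lower in each homozygote than in either wild type. So were 25.8% of all tested genes and 27.6% of genes under the filter with a value above 0. None of the 5 tested passed limma. At an unadjusted p under 0.05 there were 3, all lower, where 10% of all tested genes were lower. Hoxb7 was at 11.1 and 9.49 scaled FPKM in wild type and at 6.24 and 8.16 in homozygotes (difference -0.47, SE 0.156, limma adjusted p = 0.157). Hoxb6 was at 11.7 and 9.82 in wild type and at 6.21 and 8.58 in homozygotes (difference -0.50, SE 0.172, limma adjusted p = 0.175). Hoxb2, known from hindbrain patterning, was at 4.31 and 4.41 in wild type and at 1.93 and 3.21 in homozygotes (difference -0.61, SE 0.190, limma adjusted p = 0.140). In these 3 genes and in Hoxb8, mouse 26 was the lowest library and mouse 29 lay between it and the wild types.

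Hoxb5 was at 2.16 and 1.67 scaled FPKM in wild type and at 1.22 and 1.52 in homozygotes (difference -0.30, SE 0.147, limma adjusted p = 0.329). Hoxb4, under the filter, was at 0.977 and 0.811 in wild type and at 0.486 and 0.654 in homozygotes. Hoxb3 went another way in each homozygote, at 1.61 and 1.84 in wild type and at 1.09 and 2.33 in homozygotes (difference -0.05, SE 0.235, limma adjusted p = 0.948). Its sign turned positive with unscaled FPKM (0.0037), with quantile normalization (0.017), without mouse 28 (0.017) and without mouse 26 (0.29), and is positive in the authors' deposited table (0.097). Hoxb1 was listed at 0 in every library. Summed over Hoxb2 to Hoxb8, a range picked after the values were seen, the level was 49.8 and 43.1 in wild type and 23.3 and 34.0 in homozygotes.

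**Figure D2:**
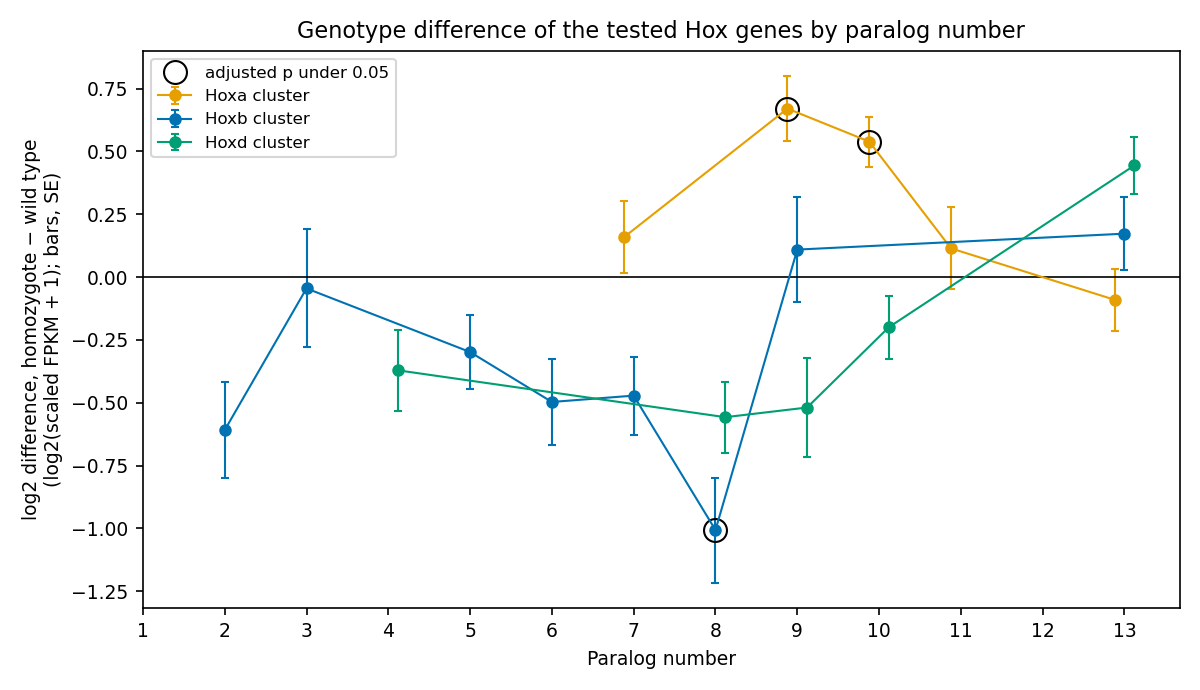
Log2 difference between homozygote and wild type for the 18 tested Hox genes, against paralog number, with 1 line for each cluster; bars are SE and open black rings mark an adjusted p under 0.05. Hoxb8 is the lowest point at -1.01, Hoxa9 the highest at 0.67, and the tested Hoxb and Hoxd genes up to number 8 lie below 0 (Hoxb3, at -0.05, turns positive with unscaled FPKM, with quantile normalization, without mouse 28, without mouse 26 and in the authors' deposited table).

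The Hoxd cluster was split between its ends, with no gene past the threshold by limma. Hoxd8 was at 10.4 and 10.8 scaled FPKM in wild type and at 6.02 and 7.85 in homozygotes (difference -0.56, SE 0.141, limma adjusted p = 0.0844). It passed without mouse 27 (0.0390). Hoxd9 was at 5.43 and 6.12 in wild type and at 2.91 and 4.69 in homozygotes (difference -0.52, SE 0.197, limma adjusted p = 0.211). Both genes were lower in each homozygote than in either wild type, and again lowest in mouse 26. Unadjusted p-values under 0.05 were found for 3 of the 5 tested Hoxd genes, Hoxd8, Hoxd9 and Hoxd13, against 21.0% of all genes tested.

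Hoxd10 was at 1.17 and 1.29 scaled FPKM in wild type and at 1.01 and 0.877 in homozygotes (difference -0.20, SE 0.125, limma adjusted p = 0.452). Hoxd4 was at 1.44 and 1.24 in wild type and at 0.607 and 1.03 in homozygotes (difference -0.37, SE 0.161, limma adjusted p = 0.271). The row of Hoxd3 overlaps that of Hoxd4, and Hoxd3, under the filter, was at 0.955 and 1.22 in wild type and at 0.320 and 1.03 in homozygotes. Hoxd11 lay on the other side, at 0.540 and 0.514 in wild type and at 1.34 and 0.874 in homozygotes, also under the filter. Hoxd12 was at 0.414 and 0.544 against 0.509 and 0.827, and Hoxd1 at no more than 0.0619 in wild type and listed at 0 in both homozygotes. The ratio of Hoxd13 to Hoxd8 was 0.689 and 0.695 in wild type and 1.84 and 1.23 in homozygotes, so the order of these genes differed between the genotypes.

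**Figure D3:**
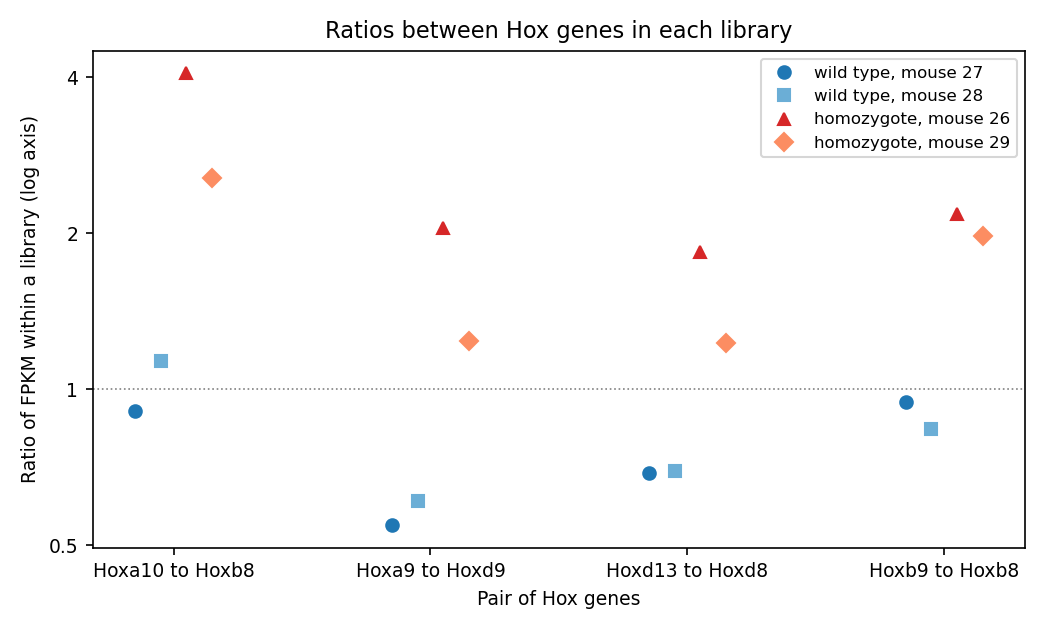
Ratio of FPKM between Hox genes within each library (log axis), with 1 point for each mouse. All 4 ratios, picked after the values were seen, are higher in each homozygote than in either wild type; that of Hoxa10 to Hoxb8 is 0.908 and 1.13 in wild type and 4.07 and 2.55 in homozygotes.

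The Hoxc cluster was close to silent. Its highest value was 0.422 scaled FPKM, for Hoxc10 in mouse 28, and Hoxc11, Hoxc12 and Hoxc13 were listed at 0 in all libraries. The 9 Hoxc genes summed to 0.515 and 1.14 in wild type and to 0.326 and 0.262 in homozygotes. Hoxc5, Hoxc6, Hoxc8, Hoxc9 and Hoxc10 were lower in each homozygote than in either wild type, each at under 0.5 scaled FPKM, where 27.6% of all genes under the filter with a value above 0 were. The authors' deposited table gives Hoxc10 a q-value of 0.0337 at a log2 fold of -2.15, while the library values were 0.106 and 0.422 in wild type and 0.0924 and 0.0467 in homozygotes. Mouse 28, the highest in Hoxc10, was also highest in markers of nerve and Schwann cells, at 79.6 summed over the list of 7 against 39.7 to 43.6 in the others. Of that list, Ngfr alone was at 17.2 in mouse 28 against 2.57 to 3.99 in the others. Mouse 28 was highest in the summed urothelium markers as well, at 632 against 313 in mouse 27, 430 in mouse 26 and 402 in mouse 29. The part of nerve, Schwann or urothelial cells in the Hoxc values was not tested.

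By paralog number, the middle of the clusters and their posterior ends lay on different sides of 0 for most tested genes. Of the 7 tested genes with numbers 4 to 8, 6 had differences below 0 and 1, Hoxa7, above it (median -0.47). Of the 9 tested with numbers 9 to 13, 6 lay above 0 and 3 below (median 0.11), while over all tested genes 49.4% lay above 0. Of those 6 above 0, Hoxa11 and Hoxb9 changed sign with a library left out, as did Hoxa13 among the 3 below. Genes 4 to 8 made up 16.1% and 14.5% of all Hox FPKM in wild type and 7.67% and 10.8% in homozygotes. Posterior genes other than Hoxb13 made up 16.5% and 17.1% in wild type and 18.1% and 20.4% in homozygotes. Paralogs of 1 number did not all move together: Hoxa9 rose, Hoxb9 overlapped between groups and Hoxd9 lay below both wild types in both homozygotes. The ratio of Hoxa9 to Hoxd9 was 0.547 and 0.609 in wild type and 2.05 and 1.24 in homozygotes.

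Smooth muscle markers were lower in both homozygotes, as were the summed ranges Hoxb2 to Hoxb8 and Hoxd3 to Hoxd10, but not Hoxa2 to Hoxa5. All 10 smooth muscle markers were lower in each homozygote than in either wild type (median difference -0.58), as were 25.8% of all tested genes. None passed limma singly. At an unadjusted p under 0.05, 8 of the 10 were lower, against 10% of all tested genes. The summed level of the 10 markers was 2758 and 1893 scaled FPKM in wild type and 1354 and 1591 in homozygotes. That is the same order of libraries as for the sum of Hoxb2 to Hoxb8, but not for that of Hoxd3 to Hoxd10. The latter was at 19.4 and 20.6 in wild type and at 10.9 and 15.5 in homozygotes, with mouse 28 above mouse 27. Set against 1000 scaled FPKM of smooth muscle markers, Hoxb2 to Hoxb8 were at 18.1 and 22.8 in wild type and at 17.2 and 21.4 in homozygotes, which overlap. On that measure Hoxb8 alone was at 6.50 and 7.97 in wild type and at 4.52 and 6.03 in homozygotes, which do not overlap. Hoxa10 was at 5.90 and 9.03 in wild type and at 18.4 and 15.4 in homozygotes. Hoxd3 to Hoxd10 were at 7.05 and 10.9 against 8.03 and 9.73, which overlap. The smooth muscle sum was picked as divisor after the values were seen, and it differed between the wild types (2758 and 1893). Overlap on this measure, or its lack, therefore decides nothing, and the part of smooth muscle in the Hox levels was not tested. In tissue RNA, fewer cells of a type and less RNA per cell cannot be told apart.

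**Figure D4:**
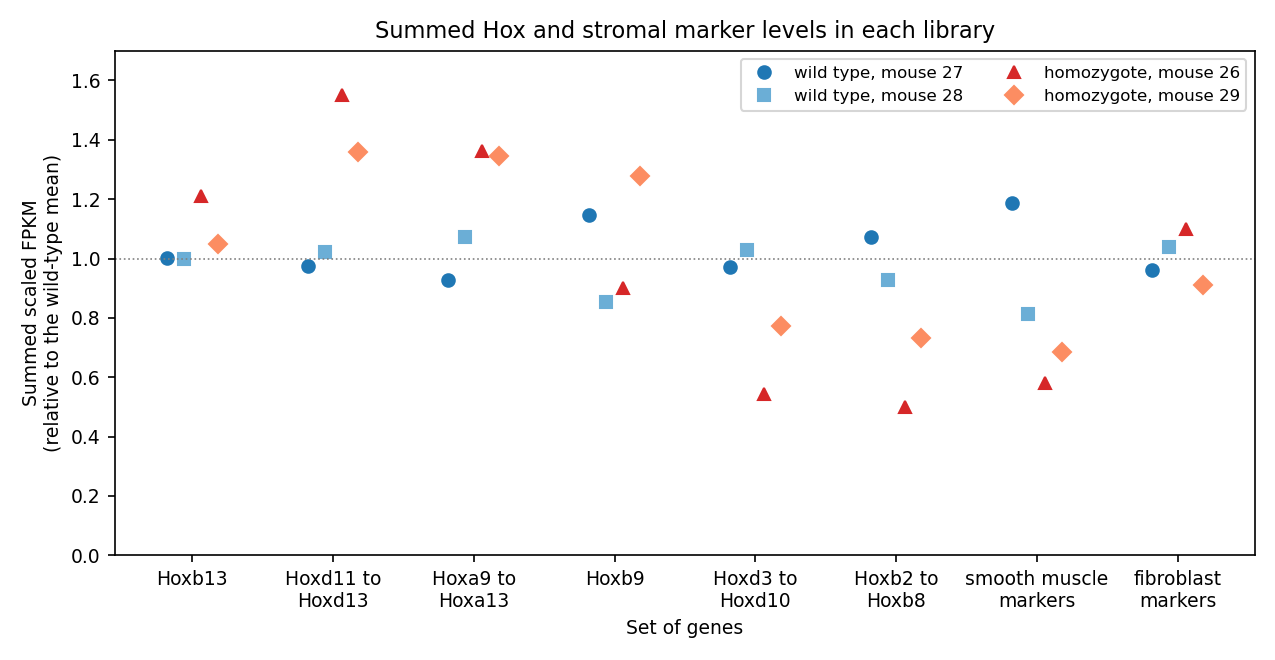
Summed scaled FPKM of Hox gene ranges and of the smooth muscle and fibroblast marker lists, relative to the wild-type mean, with 1 point for each mouse. Hoxb2 to Hoxb8 and Hoxd3 to Hoxd10 lie at 0.50 and 0.54 in mouse 26 and at 0.73 and 0.77 in mouse 29, and smooth muscle markers at 0.58 and 0.68, while fibroblast markers scatter around 1.

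The order of libraries seen for smooth muscle was shared by the sums of the seminal vesicle and skeletal muscle lists, but not by fibroblast or basal markers. The endothelial sum was also lower in both homozygotes, but with mouse 28 above mouse 27. For the counts below, 4.65% of all tested genes were called higher and 3.0% lower, and 21.0% had an unadjusted p under 0.05. Skeletal muscle markers summed to 198 and 124 in wild type and to 104 and 124 in homozygotes, mouse 28 lying just above mouse 29. Of these, 0 of 2 tested passed limma (0 at an unadjusted p under 0.05). Most of that sum was Acta1, at 184 and 112 in wild type and at 95.0 and 113 in homozygotes, with mouse 29 just above mouse 28. Myh1, Myh2, Tnnt3 and Mylpf, at low levels, were highest in mouse 28. Fibroblast markers summed to 334 and 361 in wild type and to 381 and 317 in homozygotes, and 0 of 9 tested passed limma (2 at an unadjusted p under 0.05). Seminal vesicle markers, of which 6 of 9 tested were called lower, summed to 42713 and 11082 in wild type and to 4353 and 8185 in homozygotes, without Svs2, Svs4 and Svs5, which hold a code at the top of the scale. In homozygotes nearly all of that sum was Pate4, at 15870 and 9904 in wild type and at 4318 and 8148 in homozygotes, and the other 8 genes summed to 26843 and 1178 in wild type and to 34.1 and 37.2 in homozygotes. Endothelial markers (0 of 8 called by limma, 1 at an unadjusted p under 0.05) summed to 39.0 and 41.2 in wild type and to 32.4 and 35.4 in homozygotes. All 8 had differences below 0, and 5 were lower in each homozygote than in either wild type, as were 25.8% of all tested genes. Basal epithelial markers (1 of 6 called, Itga6, higher) summed to 120 and 233 in wild type and to 242 and 206 in homozygotes. Of 13 epididymis and vas deferens markers, Lcn9, Defb20 and Defb21 were listed at 0 throughout and 0 of 3 tested passed limma (0 at an unadjusted p under 0.05). The summed level of that list was 2965 and 2026 in wild type and 1982 and 1883 in homozygotes. The part of these cell types in the Hox differences was not tested.

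Beside Hox genes, 22 rows lay inside the clusters or within 100 kb of them, 8 of them at 0 in all libraries. By limma 0 of the 5 tested passed, where 7.65% of all tested genes were called. At an unadjusted p under 0.05 there was 1, Hoxa11as, against 21.0% of all genes tested. Mira, a noncoding RNA of the Hoxa cluster, was at 5.30 and 5.88 scaled FPKM in wild type and at 5.66 and 6.98 in homozygotes (limma adjusted p = 0.623). Gm53, between Hoxb13 and Hoxb9, was at 8.92 and 6.76 against 6.75 and 7.04 (limma adjusted p = 0.646). Mtx2, which borders the Hoxd cluster, was at 30.7 and 23.9 against 25.4 and 23.8 (limma adjusted p = 0.688), and Lnp, on its other side, at 1.86 and 1.79 against 2.16 and 1.61 (limma adjusted p = 0.960). Evx1, next to Hoxa13, was under the filter at 0.230 and 0.246 in wild type and 0.0407 and 0.0563 in homozygotes. Hotair, the noncoding RNA of the Hoxc cluster, was at no more than 0.0262 in any library.

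Among the cofactors and regulators of Hox genes, Pknox2 and Ezh2 rose and Phf19 fell. Over all tested genes 4.65% were called higher and 3.0% lower. The lists below had few calls each, so their counts are not read as a result about the lists. Of 8 tested TALE cofactors, homeodomain proteins that bind DNA with Hox proteins, 1 was called higher and 0 lower (median -0.03). Pknox2 was at 8.38 and 10.4 scaled FPKM in wild type and at 17.5 and 15.4 in homozygotes, a rise of 0.75 (SE 0.140, limma adjusted p = 0.0346). Pbx3 was higher in both homozygotes but did not pass (0.53, SE 0.148, limma adjusted p = 0.108). Of 24 tested Polycomb genes, which keep Hox clusters silent, 1 was called higher and 1 lower (median 0.0073). Ezh2, the histone H3 methyltransferase of the complex, was at 2.85 and 2.87 in wild type and at 7.01 and 6.51 in homozygotes, a rise of 1.01 (SE 0.109, limma adjusted p = 0.00631). Phf19, an accessory subunit, was at 15.8 and 13.9 in wild type and at 5.60 and 5.96 in homozygotes, and fell by 1.22 (SE 0.115, limma adjusted p = 0.00391). The call of Ezh2 was lost without mouse 26. That of Pknox2 was lost without mouse 26, without mouse 29, with unscaled FPKM and without a filter on low values.

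Of 16 tested trithorax and MLL genes, which keep Hox genes active, 0 were called by limma. At an unadjusted p under 0.05 there was 1, Psip1 (-0.27, SE 0.0996, limma adjusted p = 0.203), where 10% of all tested genes were lower. The list's second gene by its statistic was Ash1l (-0.18, limma adjusted p = 0.604), and the median was -0.02. Of the caudal and axial upstream factors only Gmnn was tested (-0.01, limma adjusted p = 0.981). In the retinoic acid pathway, a classic inducer of Hox clusters, 2 of 16 tested were called lower and 0 higher (median -0.08). Over all tested genes 3.0% were called lower and 4.65% higher. Crabp1, which binds retinoic acid in the cytoplasm, was at 52.8 and 38.1 in wild type and at 0.135 and 0.0598 in homozygotes (difference -5.38, SE 0.174, limma adjusted p = 1.51e-04). The retinoid X receptor gene Rxrg was at 4.37 and 3.68 in wild type and at 0.741 and 0.607 in homozygotes and fell by 1.58 (SE 0.133, limma adjusted p = 0.00263). Of 12 tested genes of prostate bud development, 1 was called higher, the growth factor gene Bmp7, at 33.8 and 37.9 against 72.4 and 62.8 (0.90, SE 0.128, limma adjusted p = 0.0153), a call lost without mouse 26 and without mouse 29.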

How the data were processed

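RNA-seq of prostate lobes from 4 mice was compared, 2 wild type and 2 homozygous. The authors deposited 1 table with an FPKM value per gene and library, and their own log2 fold, p-value and q-value for homozygote against wild type, unit read from the column names and values. TopHat 1.3, Cufflinks 1.3 and the mm10 build are named per the submitters' processing notes; the sources used here give neither their roles nor the annotation, the use of strand or the authors' test. A code of 99999, held by 7 genes, was read as missing. FPKM was scaled by a factor per library (0.921 to 1.04), the 11762 genes that averaged 1 or more were kept, and log2(scaled FPKM + 1) was tested with limma 3.58.1 (R 4.3.3, trended variance, Benjamini-Hochberg adjustment over all genes tested), after a test on simulated data. With 2 libraries a group and 2 residual degrees of freedom, precision is limited. Tested Hox genes, tested neighbour rows, and of each pathway list the called genes and the top 2 by statistic were named. Some items under this rule are not reported here. Members and lists were chosen with earlier results of these data known; motifs, microRNA sites, ratios and gene ranges were chosen after the values were seen. Alternatives changed scaling, pseudocount, filter, variance trend, overlapping rows, the authors' q-value and each library left out.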

Additional observations from a re-analysis of the deposited data

How the results depend on the processing

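Of the recomputed differences of tested Hox genes, 216 kept their direction and their side of the threshold, 15 lost a call, 1 gained one and 8 changed sign without being called. The 2 Hox genes called higher became 0 with unscaled FPKM, 1 without a filter, 1 with a minimum mean of 5 (Hoxa9 was then not tested) and 1 with a pseudocount of 0.1 and no filter, a setting chosen after seeing the data. The 1 called lower became 0 with quantile normalization, with unscaled FPKM, with a pseudocount of 0.1, without a filter, without a trend, and a pseudocount of 0.1 with no filter, and 2 by the authors' q-value. With a library left out, 0 to 2 Hox genes were called higher and 0 to 2 lower; a lone library of a group is then assumed to vary like the other group. All genes called numbered 900, between 355 and 2028 with a library left out (2028 without mouse 27, 1630 without 28, 355 without 26, 394 without 29) and 2034 by the authors' q-value. The share of calls that were rises was 60.8%, 73.0% with unscaled FPKM, and 49.1% both without mouse 27 and in the authors' table. Of the 2034 calls in the authors' table, 999 were higher and 1005 lower. The rest had no usable fold and count there as not rises. Recomputed log2 differences ranged from 0.51 to 0.61 for Hoxa10, 0.55 to 0.81 for Hoxa9 and -1.29 to -0.72 for Hoxb8. The calls of Pknox2 and Bmp7 were lost without mouse 26 and without mouse 29, that of Ezh2 without mouse 26, and that of Pknox2 also with unscaled FPKM and without a filter. The causes were not tested. No paired analysis was possible because the groups share no replicate numbers.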
